A study of Homo sapiens with 18 samples.

Results

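The genes described here are 32 genes known to respond to androgen, without the kallikrein family, out of 22336 genes in the deposited gene table of LNCaP cells. They are taken by name, and each of the 32 was found in the table. They are genes of surface and secreted proteins (TMPRSS2, ACPP, FOLH1, PSCA and ADAM7), of metalloreductases, transporters and channels (STEAP1, STEAP2, STEAP4, ABCC4, SLC45A3 and TRPM8), of transcription (ELL2, EAF2, MAF, MED28, TSC22D3, ZBTB10 and ZBTB16), of signalling (FKBP5, CAMKK2, SGK1, ERRFI1, PTGER4, PMEPA1, NDRG1 and HOMER2), and of metabolism, cell division and other functions (ACSL3, NNMT, CENPN, MPHOSPH9, HERC3 and C1orf116). For each gene the average expression level, the STARR-seq enhancers and the ATAC-seq peaks within 50 kb of its start sites are given below.

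Androgens are steroid hormones, and steroid receptors enter the nucleus when they bind hormone and attach to DNA as dimers. The androgen response element consists of a pair of inverted hexamers separated by a short spacer. In prostate luminal cells androgen acts mostly at enhancers far from start sites, together with FOXA1, HOXB13 and GATA2, and the genes that respond include those of secretion, membrane transport, lipid metabolism and feedback control of steroid signalling.

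The human line LNCaP, from a prostate cancer, responds to androgen. Enhancer activity was measured by STARR-seq, in which random genomic fragments sit in the transcribed part of a plasmid and an active fragment is counted in the RNA it drives, with 1 input library and 2 output replicates harvested 72 h after transfection. ATAC-seq, which cuts accessible DNA with a transposase, was run on 3 cultures given trichostatin A (TSA), an inhibitor of histone deacetylases, at 100 ng/ml for 24 h and 3 cultures given the vehicle DMSO. RNA-seq covered 3 TSA, 3 DMSO and 3 untreated cultures. After transfection the STARR-seq cells, and for 72 h before treatment the TSA and DMSO cells, were kept in serum stripped of steroids by charcoal, so these cells were measured without added androgen. All groups come from 1 cell line, and the STARR-seq plasmids are outside the chromosome.

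The files used hold no values per library. Expression is the authors' average in log2 CPM (reads of a gene scaled to the size of the library), which takes in TSA-treated cultures and is therefore not the level under vehicle, and enhancers and ATAC peaks were called on pooled replicates. No replicate error and no library depth can be given, and no test between conditions was made. The error given with an enhancer is a 95% exact Poisson interval from the number of output fragments at its summit, and it covers counting error only. The authors collapsed identical fragments within each indexed PCR library but kept repeats across the indexed libraries of a replicate. The counts may therefore not be independent, and the intervals may be too narrow even for counting error. Positions are those of hg19, and distances run from the centre of a region to the nearest start site of the gene in the GENCODE basic set. Other annotated starts of a gene were not used. Some regions called upstream therefore lie inside the annotated gene or close to its outer end.

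The strongest enhancers near these genes, other than that of STEAP2, are shown first. Each is given as 201 bases around the summit on the plus strand of GRCh37, in lower case. This stretch is shorter than the fragments that the reporter assay tested. Capitals mark matches to the AP-1 motif (TGANTCA) or to the forkhead motif (TGTTTNC), searched on both strands.
MAF, closed, 7.45-fold, chr16:79673880-79674080: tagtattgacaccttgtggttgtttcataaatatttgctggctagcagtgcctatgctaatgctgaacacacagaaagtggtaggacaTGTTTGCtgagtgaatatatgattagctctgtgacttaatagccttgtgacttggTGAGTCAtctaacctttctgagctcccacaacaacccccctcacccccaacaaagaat
ZBTB16, open, 7.0-fold, chr11:113911607-113911807: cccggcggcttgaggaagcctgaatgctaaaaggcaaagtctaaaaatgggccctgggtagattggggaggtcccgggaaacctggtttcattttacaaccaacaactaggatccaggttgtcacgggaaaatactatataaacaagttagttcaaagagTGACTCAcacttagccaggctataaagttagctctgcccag
PTGER4, closed, 5.89-fold, chr5:40687429-40687629: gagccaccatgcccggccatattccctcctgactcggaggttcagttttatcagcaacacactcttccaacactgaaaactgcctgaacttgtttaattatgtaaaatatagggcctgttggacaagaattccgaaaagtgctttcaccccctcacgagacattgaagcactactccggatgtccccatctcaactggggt
NNMT, closed, 5.38-fold, chr11:114163784-114163984: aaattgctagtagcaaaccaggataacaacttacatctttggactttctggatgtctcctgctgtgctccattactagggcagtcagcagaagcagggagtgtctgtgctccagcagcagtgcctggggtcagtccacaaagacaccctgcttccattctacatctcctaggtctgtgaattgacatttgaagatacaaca
FOLH1, closed, 5.21-fold, chr11:49217677-49217877: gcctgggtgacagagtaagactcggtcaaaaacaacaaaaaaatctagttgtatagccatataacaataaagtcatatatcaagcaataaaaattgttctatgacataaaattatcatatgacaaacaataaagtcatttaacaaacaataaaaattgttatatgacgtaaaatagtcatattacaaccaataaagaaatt

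Open here means that the authors found an overlap with a DNase I site, and closed that they found none. The DNase I sites come from LNCaP cells of another data set, not from the cultures described here. The MAF enhancer holds both a forkhead and an AP-1 match in the printed bases, the ZBTB16 enhancer holds an AP-1 match, and the other 3 runs hold neither motif. The wider search within 150 bases of the summit, used for the counts below, found a forkhead match for PTGER4. Fold enrichment is the authors' ratio of output fragments at the summit to scaled input, with 1 added to each before division. The intervals were made in the same way. Scaled input was recovered from the authors' fold and p-value, not counted, and the intervals treat it as exact.

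The androgen response element was searched as AGAACA, a spacer of 3 bases and TGTTCT, with at most 2 mismatches at its 12 fixed positions, within 150 bases of each enhancer summit and of the centre of each ATAC site. The 5 matches found near the 32 genes are printed below, on the plus strand, with fixed positions that match in capitals and all other letters in lower case. The first 2 were found around summits of STARR-seq enhancers and the last 3 in ATAC sites. The FKBP5 match ends 42 bases before the called start of its enhancer, and the other 4 lie inside their regions.
FKBP5, chr6:35659383-35659397: AGAACAgtcaGTTCc
ZBTB16, chr11:113976858-113976872: gGAAaAcgcTGTTCT
ACPP, chr3:131986592-131986606: AagACAcagTGTTCT
MED28, chr4:17599422-17599436: AGAACAtacTGTcCT
SLC45A3, chr1:205668156-205668170: AGAgCAgatTGTcCT

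FKBP5 encodes a cochaperone of steroid receptors, and its match lies beside a closed enhancer in an intron of the gene, 3.0 kb upstream of a start site, of 2.32-fold (1.79 to 2.95; 63 output fragments against 26.6 scaled input fragments). ZBTB16 encodes the zinc finger protein PLZF, a transcriptional repressor, and its match lies in a closed intronic enhancer, 43.9 kb downstream of a start site, of 3.13-fold (2.26 to 4.24). These 2 enhancers are 1.38% of the 145 searched near the genes, beside 1.52% of the 49207 enhancers within 50 kb of any gene searched in the same way. For 39 of the 145 the bases searched reach past an end of the called enhancer. Among the 111 merged ATAC sites near the genes, 3 (2.70%) held a match, beside 1.41% of sites within 50 kb of any gene. The site with 1 mismatch lies 16.9 kb upstream of MED28, a subunit of the Mediator complex, in an ATAC site found in both conditions with an average of 4.0 log2 CPM. The sites upstream of ACPP (49.7 kb) and SLC45A3 (18.6 kb) were in the vehicle list alone, with averages of 3.18 and 2.85 log2 CPM. All 12 positions were matched around none of the 145 summits and around 2 of all 94527.

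The 32 genes were mostly expressed. An average of at least 1 CPM was reached by 30 of 32, beside 66.3% of all genes, and the median was 5.16 log2 CPM beside 2.94 over the whole table. Genes differ in length, so levels are compared between genes per kb of exon. On this scale the median of the 32 was 2.61 log2 CPM per kb, beside 1.48 over the 20843 genes with an annotated start site. There were 22 members above that median, 12 above the upper quartile of all genes (3.62) and 2, STEAP4 and ADAM7, below the lower quartile (-1.96). None of these differences has a replicate error.

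**Figure D1:**
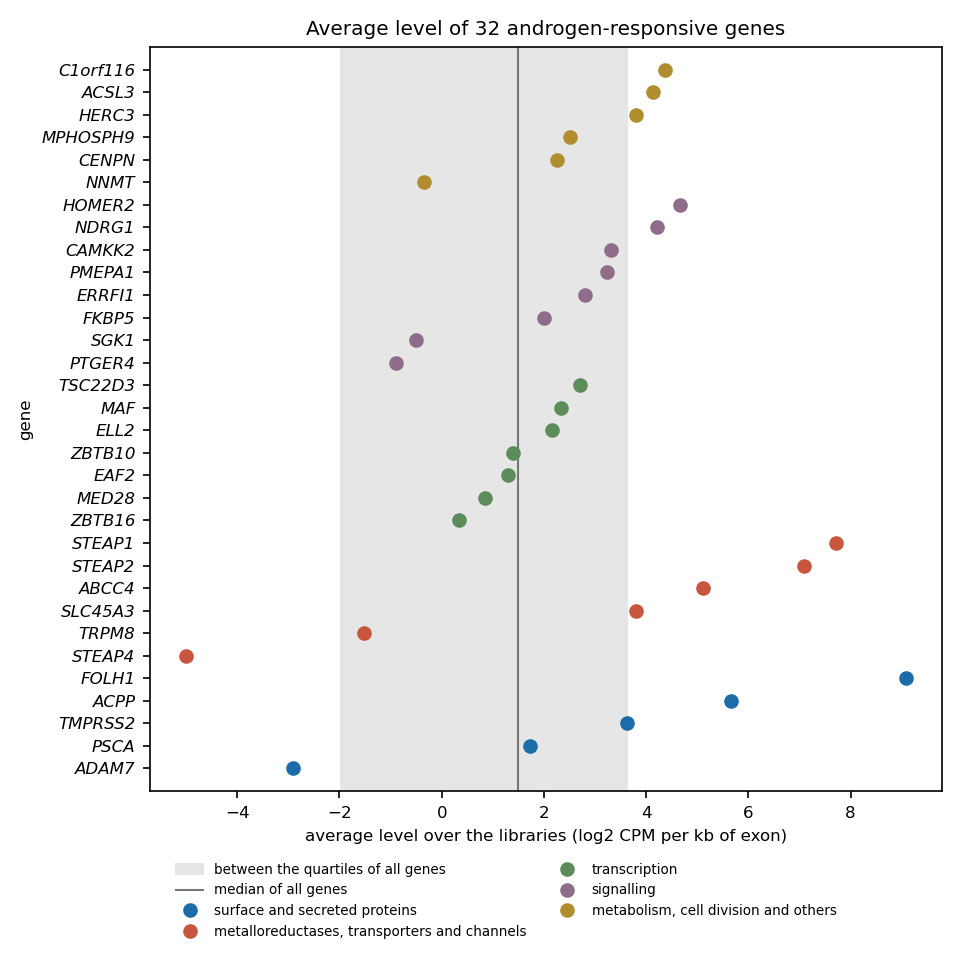
Average expression of the 32 genes, with 1 row per gene, in log2 CPM per kb of exon, coloured by role, with the range between the quartiles of all genes shaded and their median as a line. FOLH1, STEAP1 and STEAP2 lie farthest to the right at 9.09, 7.72 and 7.09, STEAP4 and ADAM7 lie left of the shading at -5.00 and -2.92, and the 7 transcription genes stay within it.

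Among surface and secreted proteins the levels per kb ran from percentile 16.5 of genes (ADAM7) to 99.6 (FOLH1). FOLH1, which encodes prostate-specific membrane antigen, was the highest of the 32 at 11.17 log2 CPM (2304 CPM) and 9.09 per kb, in percentile 99.6 of genes. It has a close paralog, FOLH1B, and how reads shared between the 2 genes were counted is not given in the sources used here. ACPP, prostatic acid phosphatase (now ACP3), followed at 5.65 per kb, and TMPRSS2, a membrane serine protease whose promoter is joined to ERG in many prostate tumours, stood at 3.62. PSCA, prostate stem cell antigen, was lower at 1.74. ADAM7, a membrane protein known from the epididymis, was under 1 CPM at -0.75 log2 CPM and had no ATAC peak within 50 kb in the vehicle list. The 5 genes had 20 enhancers, 4 of them open, of which 3 were near PSCA.

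The metalloreductase family of STEAP proteins, which reduce iron and copper at membranes, held both ends of its role group. STEAP1 reached 7.72 and STEAP2 7.09 log2 CPM per kb, in percentiles 98.9 and 98.2, whereas STEAP4 was the lowest of the 32 at -5.00 (-1.51 log2 CPM). STEAP1 and STEAP2 are neighbours on chromosome 7 and share an enhancer between them of 3.09-fold (2.09 to 4.41). It lies 11.5 kb downstream of the start of STEAP1 and 45.7 kb upstream of the nearest basic start site of STEAP2. The annotated STEAP2 gene, however, begins at chr7:89796904, and the enhancer ends shortly before it, at 89795565. STEAP4 had an ATAC peak at its start site in both lists, and STEAP1 in neither.

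ABCC4, an exporter of cyclic nucleotides and drugs, stood at 5.11 per kb and had 7 enhancers, all closed. The strongest lies 4.7 kb upstream and had 4.57-fold enrichment (3.39 to 6.03). SLC45A3, or prostein, a membrane transporter of prostate cells, stood at 3.81 and had 2 open enhancers and 1 closed one. TRPM8, the cold-sensing ion channel, was near the low end at -1.52 per kb, had 7 enhancers and had no ATAC peak at a start site. Its 1 peak, 49.2 kb upstream, was in the TSA list.

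The 7 genes of transcription lay close together, from 0.35 (ZBTB16) to 2.71 (TSC22D3) log2 CPM per kb, with a median of 1.39. ELL2, an elongation factor, stood at 2.16, and EAF2, which associates with ELL proteins, at 1.31, and each had 1 closed enhancer within 50 kb. MAF, a basic leucine zipper factor, stood at 2.34 and had 7 enhancers, all closed and 2 of them upstream. ZBTB10, a zinc finger protein, had 3 closed enhancers at 1.39 per kb. TSC22D3 encodes GILZ, a leucine zipper protein also induced by glucocorticoids, and had a closed enhancer and an open one 0.1 kb upstream of a start site. MED28 had 10 enhancers at a level of 0.86 per kb.

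ZBTB16 had the most enhancers of the 32 genes, 11, of which 3 were open. They spread from 42.0 kb upstream to 43.9 kb downstream of its start sites, and 6 of them lie in its introns. All but 3 were below 3-fold. The exceptions are the open enhancer 18.1 kb upstream (7.0-fold, 5.71 to 8.49), an intronic closed one 39.8 kb downstream (4.63-fold, 3.49 to 6.03) and the one with the element match (3.13-fold). The gene has 9 start sites in the annotation, and the number of enhancers was not adjusted for the number of start sites.

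The signalling genes ranged from -0.90 (PTGER4) to 4.65 (HOMER2) per kb. HOMER2, a scaffold protein of receptor signalling, had 6 enhancers, up to 4.95-fold (3.86 to 6.25) in an intron. NDRG1, a stress-induced protein, stood at 4.21 and had 4 closed intronic enhancers, none above 2.63-fold. CAMKK2, a calcium-dependent kinase that acts on AMPK, stood at 3.31, PMEPA1, an inhibitor of TGF-beta signalling, at 3.23, ERRFI1, an inhibitor of the EGF receptor, at 2.80, and FKBP5 at 2.01. SGK1, a kinase induced by steroids, was lower at -0.51 and had 7 closed enhancers. PTGER4, a receptor of prostaglandin E2, was the lowest of the group with 1.83 CPM, and 1 of its 2 enhancers was the third strongest near the 32 genes.

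C1orf116, or SARG, an androgen-regulated protein of unknown function, led the remaining genes at 4.37 per kb. ACSL3, which activates fatty acids, stood at 4.14, HERC3, a ubiquitin ligase, at 3.80, MPHOSPH9, a centrosomal protein, at 2.51 and CENPN, a centromere protein, at 2.26. NNMT, which methylates nicotinamide, was low at -0.35 (1.69 CPM) and had no ATAC peak at a start site. Its 4 enhancers were closed, and 3 of them exceeded 3.8-fold. One of these lies 46.1 kb upstream in an intron of the neighbouring ZBTB16.

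Within 50 kb of a start site there were 145 distinct enhancers, 23 open and 122 closed. The open share of 15.9% (exact binomial 95% interval 10.3 to 22.8) stood beside 20.2% of the enhancers within 50 kb of any gene. Within 25 kb the shares were 17.6% near the 32 genes and 25.1% near any gene, and with a q-value under 1e-05 16.7% and 21.0%. Within 100 kb the order turned, with 18.98% open near the 32 genes and 17.1% near any gene. Each of the 32 genes had at least 1 enhancer, beside 96.0% of genes, and 16 had an open one, beside 56.6%. The median was 4 per gene both for the 32 and for all genes, and the density was 40.7 enhancers per Mb of window beside 38.2. The members' enhancers were thus about as frequent as those of genes in general.

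**Figure D2:**
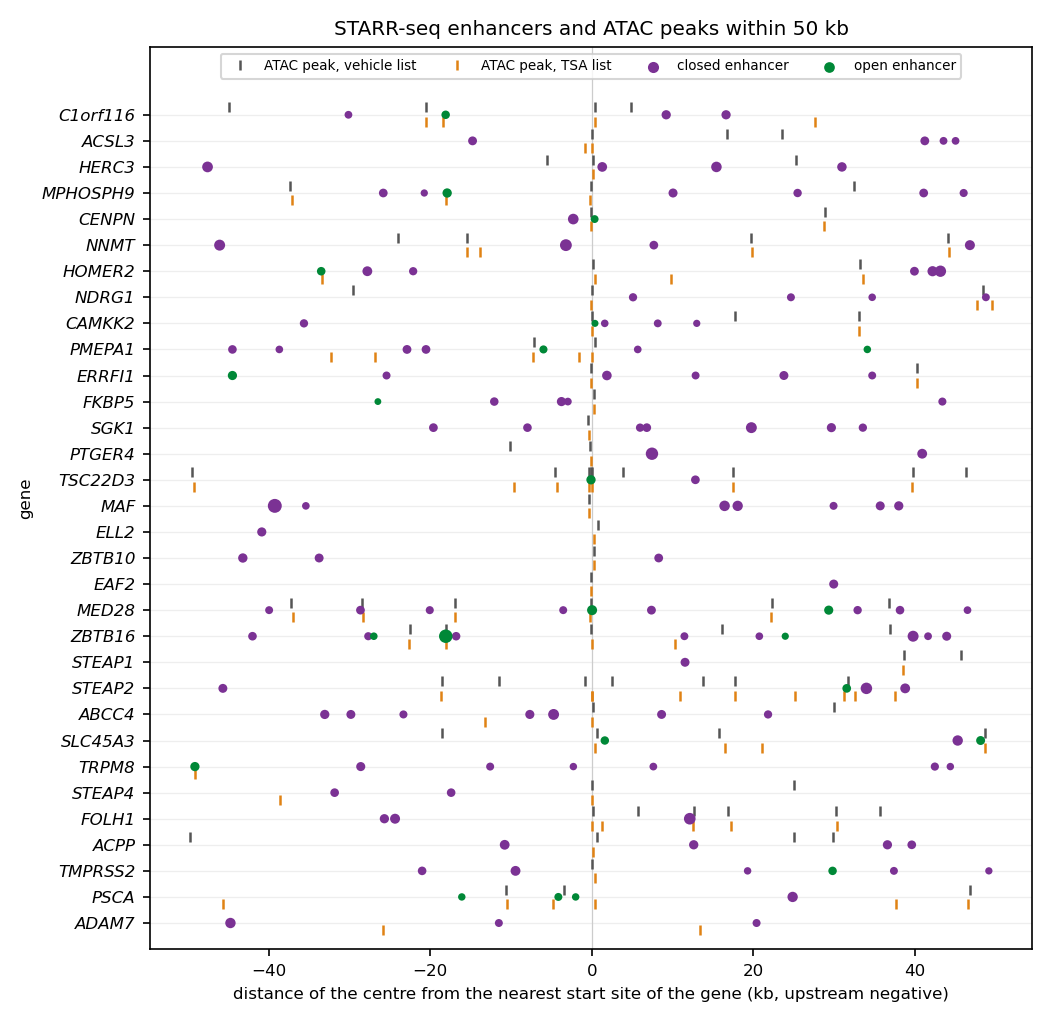
Enhancers and ATAC peaks around the 32 genes, with 1 row per gene and the distance in kb from the nearest start site of the gene on the x axis. Circles are enhancers, coloured by chromatin state and with an area that grows with fold enrichment, and ticks are ATAC peaks of the vehicle list (above each row) and the TSA list (below). ATAC peaks gather at 0 in most rows, whereas the 122 closed enhancers are spread over the whole window.

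The centres of 77 enhancers fell in introns, those of 13 in exons and those of 55 between genes. A member was the nearest gene of 112 enhancers, and another gene was nearest to 33. Among others, all enhancers of ABCC4, ACPP, ACSL3, MAF, SGK1 and ZBTB10 had that gene as the nearest one, whereas 3 of 4 near STEAP2 lay in C7orf63. An enhancer overlapped the 1 kb around a start site in 5 genes (HERC3, CENPN, CAMKK2, MED28 and TSC22D3), beside 28.5% of all genes. Open enhancers were richer in GC than closed ones, with medians of 57.5% and 46.8% within 150 bases of the summit, beside 59.5% and 48.2% near any gene.

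Enhancer activity near the 32 genes was close to that near genes in general. The folds ran from 1.79 to 7.45 with a median of 2.91, beside a median of 3.02 near any gene. A fold above 4 was reached by 19, beside 17.1% of enhancers near any gene. The median was 2.76 for open and 2.93 for closed enhancers, beside 2.81 and 3.07. The median enhancer rested on 46 output fragments (lowest 24, highest 115), and the median scaled input was 14.4 fragments. The scaled input was at its lowest value, 8.40, for 12 of the enhancers.

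**Figure D3:**
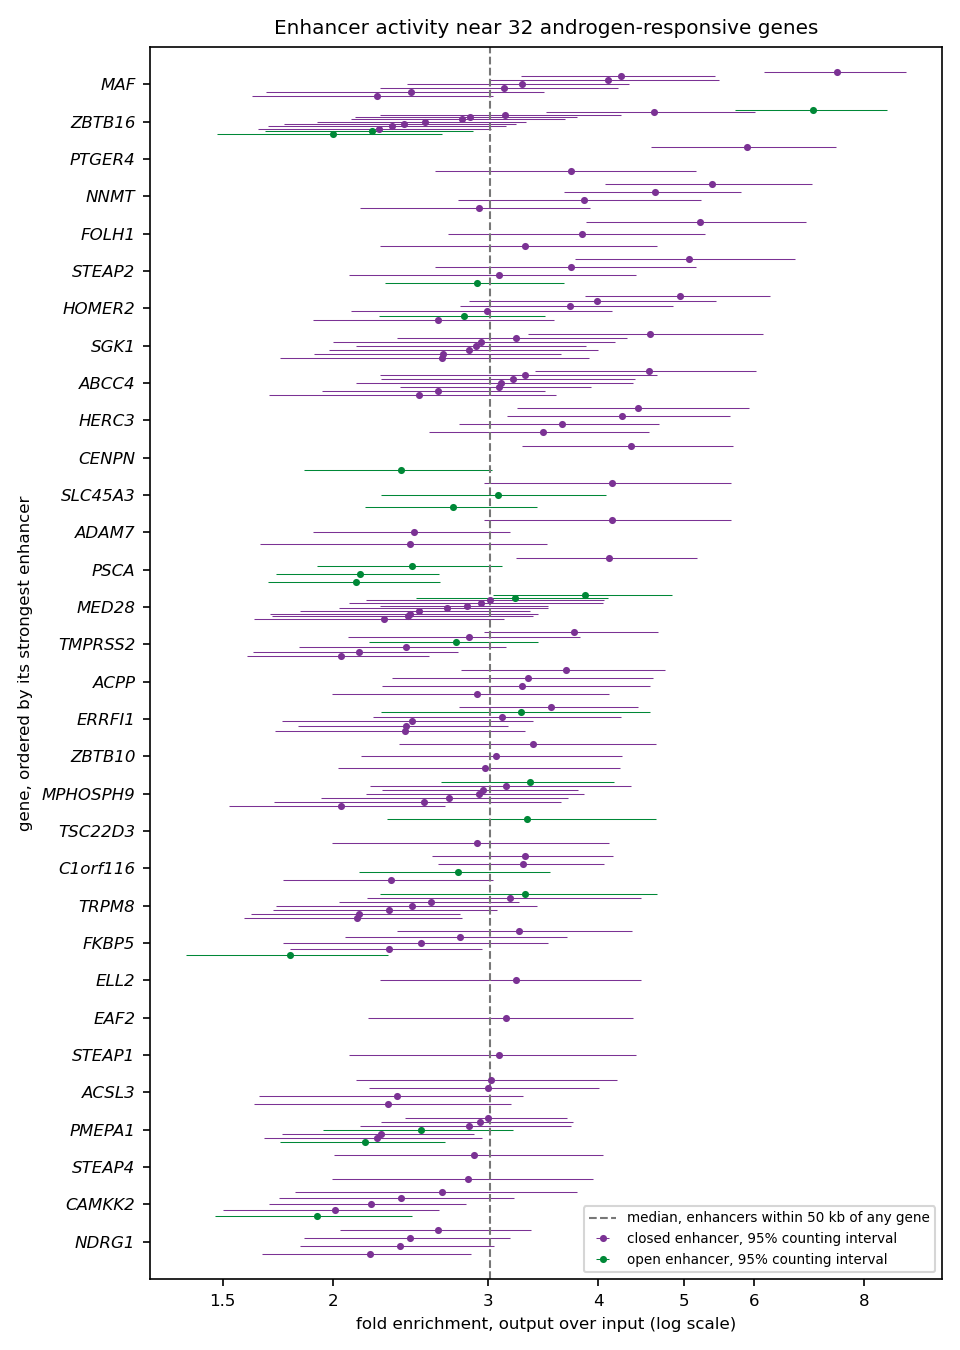
Fold enrichment of output over input on a log scale for each enhancer within 50 kb of the 32 genes, 1 row per gene in the order of its strongest enhancer, with 95% counting intervals as horizontal bars and the median near any gene as a dashed line. The strongest enhancers of MAF (7.45) and ZBTB16 (7.0) are the highest. The MAF interval stands clear of those of the other MAF enhancers, and the intervals of 110 of the 145 enhancers hold the dashed line.

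The strongest enhancer lies 39.2 kb upstream of MAF between genes, with 115 output fragments against 14.6 scaled input fragments (7.45-fold, 6.16 to 8.93). Its interval does not overlap that of the next MAF enhancer (4.25-fold, 3.27 to 5.42), and it overlapped no ATAC peak of either list. The open ZBTB16 enhancer had 101 fragments against 13.6 and lay in peaks of both lists. The interval of the ZBTB16 enhancer overlaps that of MAF, so their order is not settled by these counts.

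The PTGER4 enhancer lies 7.4 kb downstream of its start in an intron (68 fragments against 10.7; 4.59 to 7.44). The NNMT enhancer lies in an intron of the gene, 3.2 kb upstream of one of its start sites (54 against 9.2; 4.06 to 6.99). The FOLH1 enhancer lies 12.1 kb downstream in an intron (48 against 8.4; 3.87 to 6.88). Its scaled input is the lowest value, shared by 12 of the enhancers, and whether that value reflects local input was not tested. The STEAP2 enhancer lies 34.0 kb downstream in an intron of C7orf63 (5.06-fold; 48 against 8.7; 3.76 to 6.68). These 4 intervals overlap each other, so their order cannot be read from the counts.

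Apart from the ZBTB16 enhancer, the strongest open enhancers were weaker. The one at the start site of MED28 had 3.86-fold enrichment (3.04 to 4.84), the one 17.9 kb upstream of MPHOSPH9, in an exon of C12orf65, had 3.34-fold (2.65 to 4.16) and holds an AP-1 match. At the TSC22D3 start site it was 3.32-fold (2.31 to 4.65) and 49.1 kb upstream of TRPM8 3.30-fold (2.26 to 4.66). These 4 intervals all overlap.

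The forkhead motif, to which FOXA1 and related factors bind, was found around 36 of the 145 enhancer summits (24.8%), beside 20.8% near any gene. The AP-1 motif, the site of JUN and FOS dimers, was found around 11 (7.59%), beside 10.7%. In the ATAC sites the forkhead motif was in 36 of 111 (32.4%), beside 21.2% of sites near any gene. These are counts of letters within 150 bases of a summit or centre and do not show that a factor was bound.

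Most of the genes had accessible start sites in both conditions. An ATAC peak lay within 1 kb of a start site for 27 of the 32 genes in the vehicle list, beside 56.7% of all genes, and for 28 in the TSA list, beside 60.9%. The 32 genes have 123 start sites, beside 58375 for 20843 genes. These shares were not adjusted for the number of start sites or for expression level. Both lists had a peak at the same 27 genes. At basic start sites PSCA was the 1 gene with a peak in the TSA list alone, beside 5.64% of genes, with a score of 0.0439 at rank 32318 of the 40995 peaks. The outer annotated start of PSCA, chr8:143751726, is not in the basic set. It lies under a peak found in both lists, with scores of 0.082 (vehicle) and 0.105 (TSA). No member had a start peak in the vehicle list alone, beside 1.37% of genes. The 4 genes with none in either list were ADAM7, NNMT, STEAP1 and TRPM8, beside 37.7% of genes.

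The level of expression and the presence of a start peak did not always go together. STEAP1, at 258 CPM, had its nearest peak 38.7 kb away in the vehicle list and 38.5 kb away in the TSA list. STEAP4, at 0.351 CPM, had a start peak of 0.105 in the vehicle list and 0.0910 in the TSA list. PTGER4, at 1.83 CPM, had a peak of 0.0979 under vehicle and 0.162 under TSA.

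**Figure D4:**
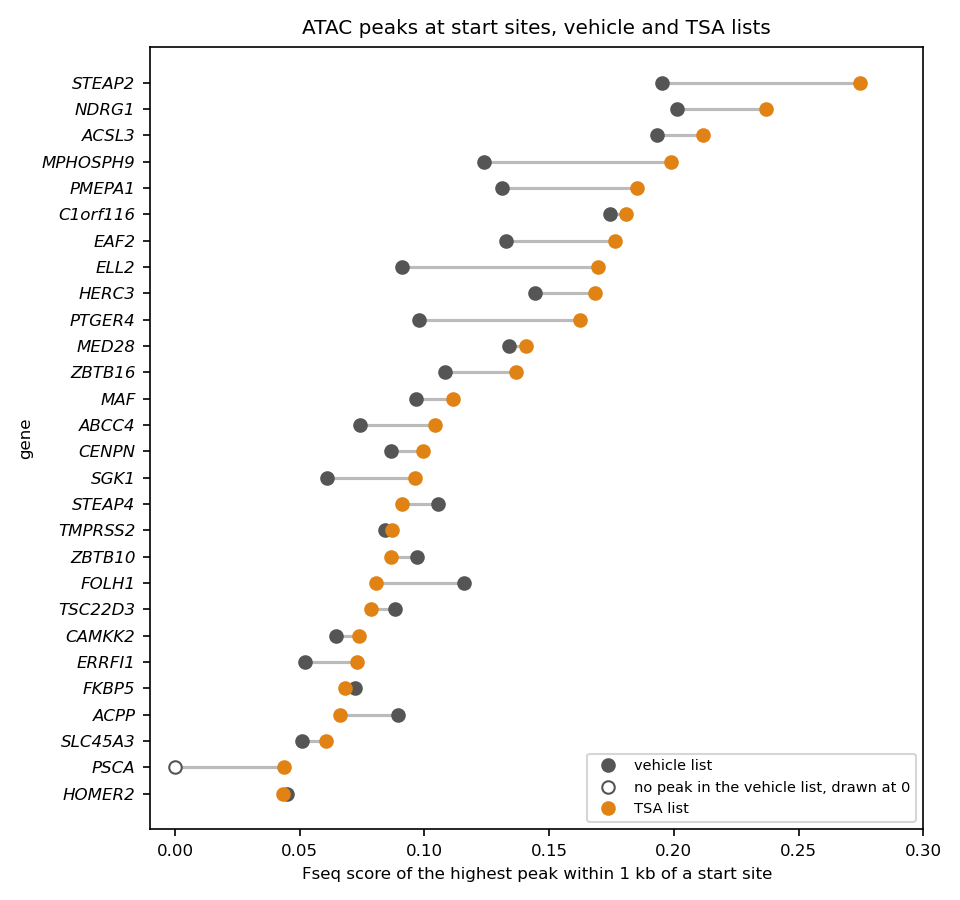
Score given by the Fseq peak caller to the highest peak within 1 kb of a start site, in the vehicle list (grey) and the TSA list (orange), for the 28 genes with a start peak, 1 row per gene. STEAP2 is highest in the TSA list at 0.275 and NDRG1 in the vehicle list at 0.201, and PSCA has a peak at a basic start site in the TSA list alone.

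Of the 27 genes with a start peak in both lists, 20 (74.1%) had the higher score in the TSA list and 7 the lower, beside 75.7% higher among the 11523 such genes of the table. The median log2 ratio of TSA to vehicle score was 0.21 for the 27 genes and 0.20 for all. How scores were scaled between conditions is not stated, so the ratio is read against that of all genes. ELL2 had the largest ratio, with scores of 0.0912 and 0.170 (log2 ratio 0.89), followed by PTGER4 (0.73), MPHOSPH9 (0.68) and SGK1 (0.66). FOLH1 was at the other end, with 0.116 under vehicle and 0.0805 under TSA (log2 ratio -0.53), next to ACPP (-0.43) and STEAP4 (-0.21). Each score is a single value from 3 pooled libraries.

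Around the 32 genes each list held 88 distinct peaks. In the vehicle list 28 (31.8%) overlapped no TSA peak, beside 20.3% of vehicle peaks near any gene, and in the TSA list 23 (26.1%) overlapped no vehicle peak, beside 25.9%. The peaks of 1 list alone were weak, with a median rank of 27469 of 38813 in the vehicle list and 29829 of 40995 in the TSA list, against 10764.5 and 12553 for shared peaks. ACPP had 3 vehicle peaks with no TSA peak over them, at 49.7 kb upstream and 25 and 29.8 kb downstream, and PMEPA1 had 3 TSA peaks with no vehicle peak over them, at 1.6, 26.9 and 32.3 kb upstream. The lowest score listed was 0.0390 in the vehicle list and 0.0377 in the TSA list, so absence from a list does not show that a site was inaccessible.

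The merged ATAC sites near the genes numbered 111, of 51909 in all, and 60 of them lay in peaks of both lists. Their average was 4.98 log2 CPM, as a median, beside 4.40 for all such sites. The 28 sites of the vehicle list alone had a median of 2.97 and the 23 of the TSA list alone 3.19, beside 2.77 and 2.78. Sites found in both lists had the higher median here as in the whole table. The lists and the averages come from the same ATAC-seq experiment, so grouping by list already sorts sites by coverage. No conclusion is drawn from this order.

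Few enhancers lay in accessible chromatin by ATAC-seq. A vehicle peak overlapped 13 of the 145, namely 9 of 23 open ones, beside 41.7% near any gene, and 4 of 122 closed ones, beside 1.41%. A TSA peak overlapped 15, namely 12 open ones, beside 46.1%, and 3 closed ones, beside 2.01%. The 4 closed enhancers in a vehicle peak were those of FOLH1 and STEAP2 described above, one 28.6 kb upstream of MED28 (2.94-fold, 2.09 to 4.04) and one 48.8 kb downstream of the NDRG1 start (2.38-fold, 1.84 to 3.04). These 4 enhancers have no DNase I site in the list the authors used and yet overlap an ATAC peak. DNase I and ATAC were measured on different LNCaP cultures, and why they differ here was not tested.

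There were 4 enhancers in a TSA peak and in no vehicle peak, beside 2.25% of enhancers near any gene, and all 4 were open by DNase I. From the nearest basic start site, they lie 18.1 kb upstream of C1orf116 in an exon of YOD1 (2.77-fold, 2.14 to 3.52), 33.5 kb upstream of HOMER2 in an exon of FAM103A1 (2.82-fold, 2.25 to 3.48), 17.9 kb upstream of MPHOSPH9 and 49.1 kb upstream of TRPM8. The annotated HOMER2 gene, however, reaches to chr15:83654905, inside its enhancer (83654707 to 83655256). MPHOSPH9 reaches to chr12:123728561, and its enhancer begins at 123735228, closer than 17.9 kb. By basic start sites, each of the 4 enhancers is nearest to a gene that is not a member, YOD1, FAM103A1, C12orf65 and HJURP. The TSA peaks over them ranked 23198, 18944, 19922 and 27998. The STEAP2 enhancer 34.0 kb downstream lay in a vehicle peak and in no TSA peak. So did a PSCA enhancer 2.0 kb upstream of a basic start site, in an intron of JRK and PSCA (2.14-fold, 1.72 to 2.64). The vehicle peaks over these enhancers each overlapped a TSA peak beside the enhancer.

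A list of 11 factors that act with steroid receptors was expressed throughout, each at a higher average level per kb than the median of the 32 genes. All 11 reached at least 1 CPM, beside 66.3% of all genes, and had a start peak in both lists, beside 11523 of 20843 genes. Their levels ran from 2.92 (NCOA3) to 7.20 (HOXB13) log2 CPM per kb with a median of 4.35. Of the kallikreins, KLK3, which encodes prostate-specific antigen, stood at 6.84 per kb with no start peak in either list, KLK4 at 5.14 with a peak in both, and KLK2 at 2.89 with a peak in the TSA list alone. Luminal markers were above 1 CPM in 6 of 6 genes, from KRT19 at 0.44 to CDH1 at 9.55 log2 CPM, with a sum of 1917 CPM. Basal markers reached 1 CPM in 2 of 4 (KRT5 at 6.23 log2 CPM and ITGB4). Stromal markers did so in 4 of 5, immune in 1 of 3 (CD68) and neuroendocrine in 2 of 3 genes. The lists are short, and 66.3% of all genes reached 1 CPM. Of these lists, ENO2, a neuronal enolase, stood at 7.003 log2 CPM, and the stromal COL1A1 and VIM at 6.77 and 5.88, whereas CHGA (-1.75), PTPRC (-1.89), TP63 (-1.89), DES (-2.40) and CD3E (-2.62) were lower. The pooled averages give no level of these markers per library, and their part in the values above was not tested.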

How the data were processed

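Open and closed enhancers, ATAC peaks and average levels of 32 genes were taken from files made by the authors on hg19. Expression and ATAC sites are deposited as an average in log2 CPM, from reads aligned by the authors with TopHat or with Bowtie, cutadapt, Bowtie2 and Picard and fitted in edgeR. Both tables also hold the authors' log2 fold changes, likelihood ratios and p-values for TSA against vehicle, which were not used, so no change in expression is given. Peaks carry the Fseq score deposited by the authors for 3 pooled libraries. Enhancers carry the authors' MACS2 fold enrichment, −log10 p-value and −log10 q-value (q under 0.05, both replicates pooled), from which fragments at the summit were recovered to within 0.000385 of a whole number. Their versions are not given in the sources consulted.

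Start sites came from GENCODE basic transcripts on GRCh37 (58375 sites of 20843 genes). ACPP was matched as ACP3, and a read-through model that carries the name HERC3 was left out after its values were seen. Length is the union of exons. Overlap means 1 shared base. Sequences were read with pysam 0.24.0, tables with pandas 2.3.3 under Python 3.11.15, intervals came from scipy 1.17.1 (numpy 2.4.6) and figures from matplotlib 3.10.9, and the steps were tested on simulated data. The labels tie the gene table to the untreated cultures too, and which libraries enter its average is not stated.

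The members and lists were chosen with earlier results of these data known. The text names all 32 genes, and in full the 3 highest and 3 lowest levels per length, the gene with the most enhancers, the 5 strongest open and closed enhancers, start peaks of 1 list and enhancers in a peak of 1 list. A marker gene was left out of its lists and their counts and is not reported here, nor is the sequence of the STEAP2 enhancer. Alternatives were other distances, thresholds, overlaps, windows and mismatches.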

Additional observations from a re-analysis of the deposited data

How the results depend on the processing

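No paired analysis was possible because the files used hold no values per library, and for the same reason no replicate could be left out. Of 34 alternatives, 20 stayed within 1.5 times the count or within the 95% interval of the value, and 14 did not. Why these 14 moved was not tested. With a distance of 25 kb there were 74 enhancers and with 100 kb 274. With a q-value under 1e-05 the median fold was 3.02, beside 3.16 near any gene. With the 20000 highest peaks of each list, 52 vehicle and 55 TSA peaks remained around the genes, of which 10 and 11 were in 1 list alone, and with 25 kb those counts were 16 and 12. Where at least 50% of the peak had to overlap, 2 enhancers lay in vehicle peaks and 5 in TSA peaks. The androgen response element was matched around 0 enhancer summits with at most 1 mismatch, in 24 with at most 3 (14.4% of enhancers near any gene held one) and in 4 over whole enhancers (3.27%). With the read-through HERC3 model, an alternative chosen after seeing the data, there were 148 enhancers and 16.2% were open. The number of output fragments limits the precision of each fold, and the pooled lists limit every comparison of TSA with vehicle to single values.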
